A study of Mus musculus with 6 samples.

Results

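The enzymes and carriers described here run the tricarboxylic acid (TCA) cycle, bring pyruvate and glutamine carbon into it, or take citrate and malate out of it. They were chosen by name as a fixed set of 43 genes, and all 43 were found among the 26187 genes measured. Of the 43 genes, 16 encode enzymes or complex subunits that make or use alpha-ketoglutarate (AKG). The AKG-dependent dioxygenases are not in the set. The cells were MC3T3-E1, a pre-osteoblast line from mouse calvaria. In the PAKG group they were given PAKG–8diol–PEG(S) MPs, microparticles of a polyester in which AKG itself is a building block together with octanediol and polyethylene glycol, at 30 μg/mL for 2 days. The OC group was kept without MPs in the same osteoconductive (OC) medium. This medium contains β-glycerophosphate and ascorbic acid, so both groups were under osteogenic conditions. Poly(A) RNA of 3 samples per group was sequenced. Neither sequenced group received AKG-free particles or free AKG, so effects of the particle and of AKG cannot be told apart. Cells were generally seeded in triplicate wells, but the methods do not tie the RNA samples to wells or to repeats of the experiment. Each p-value therefore reflects the spread among these samples alone, which may be no more than that of wells seeded together.

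In the TCA cycle, acetyl-CoA joins oxaloacetate to give citrate, which is oxidised by way of isocitrate, AKG, succinyl-CoA, succinate, fumarate and malate back to oxaloacetate. AKG stands at the branch to amino acid metabolism. Isocitrate dehydrogenases make it from isocitrate, glutamate dehydrogenase and aminotransferases interconvert it with glutamate, and the AKG dehydrogenase complex consumes it. Pyruvate carboxylase refills the oxaloacetate pool, while ATP citrate lyase and malic enzyme draw on exported citrate and malate to supply acetyl-CoA and NADPH in the cytosol. Osteoblasts are known to use both glucose and glutamine, with glutamine serving as a source of AKG and of amino acids for matrix proteins.

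The deposited values are FPKM, fragment numbers scaled to transcript length and to the mapped fragments of the library, so levels of different genes can be set side by side per length. Depth was estimated from the lowest values of short genes at 32900000 to 42600000 fragments per PAKG library and 32400000 to 38800000 per OC library. A single fragment mapped to 1 kb of transcript then corresponds to 0.0235 to 0.0309 FPKM. Transcripts encoded by mitochondrial DNA took 9.53% to 10.71% of the FPKM of a PAKG library and 10.84% to 11.88% in OC, and this share was higher in every OC library than in any PAKG library. All 9 osteoblast lineage markers were expressed and 8 passed the test (limma adjusted p under 0.05), 7 higher and 1 lower, with a summed level of 8602 to 9226 FPKM in PAKG and 5905 to 6944 FPKM in OC. All 8 proliferation markers passed it and were lower in PAKG, with sums of 269 to 291 FPKM in PAKG and 433 to 437 FPKM in OC. Of 6 macrophage markers 4 were in the files, with sums of 16 to 17.6 FPKM in PAKG and 9.21 to 12.1 FPKM in OC. Nearly all of this was Lyz2, a lysozyme gene, while Ptprc, which encodes the pan-leukocyte protein CD45, was listed at 0 to 0.01 FPKM. Endothelial, adipocyte, skeletal muscle and epithelial markers summed to under 1 FPKM in every library, and the adipocyte markers were at 0 in all PAKG libraries and reached 0.87 FPKM in 1 OC library. The part of these shifts in the results on TCA cycle genes was not tested. Since the samples are bulk RNA, fewer cells of a type and less RNA per cell cannot be told apart.

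With PAKG MPs, 8 of the 41 TCA cycle and AKG genes that could be tested changed, 2 higher and 6 lower, and none by 2-fold. The 2 that rose were Me1, the cytosolic malic enzyme that makes NADPH from malate, and Ogdhl, a homologue of the catalytic subunit of the AKG dehydrogenase complex. The 6 that fell were Pcx (pyruvate carboxylase), Cs (citrate synthase), Idh3a (catalytic subunit of the NAD-dependent isocitrate dehydrogenase), Bcat1 (cytosolic branched-chain aminotransferase), Got1 and Got2 (cytosolic and mitochondrial aspartate aminotransferase). The remaining tested genes, among them all subunits of succinate dehydrogenase and succinyl-CoA ligase, did not pass the test. A gene was called at a limma adjusted p under 0.05, over the 12590 genes that averaged 0.5 FPKM or more, on log2(FPKM + 0.1), a scale on which fold changes of weakly expressed genes come out too small. Me3, the second mitochondrial malic enzyme, had 0.16, 0.20 and 0.20 FPKM in PAKG against 0.25, 0.19 and 0.30 FPKM in OC, and Slc38a1, a glutamine transporter of the plasma membrane, was listed at 0 to 0.01 FPKM. Both were below the minimum and were not tested.

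**Figure D1:**
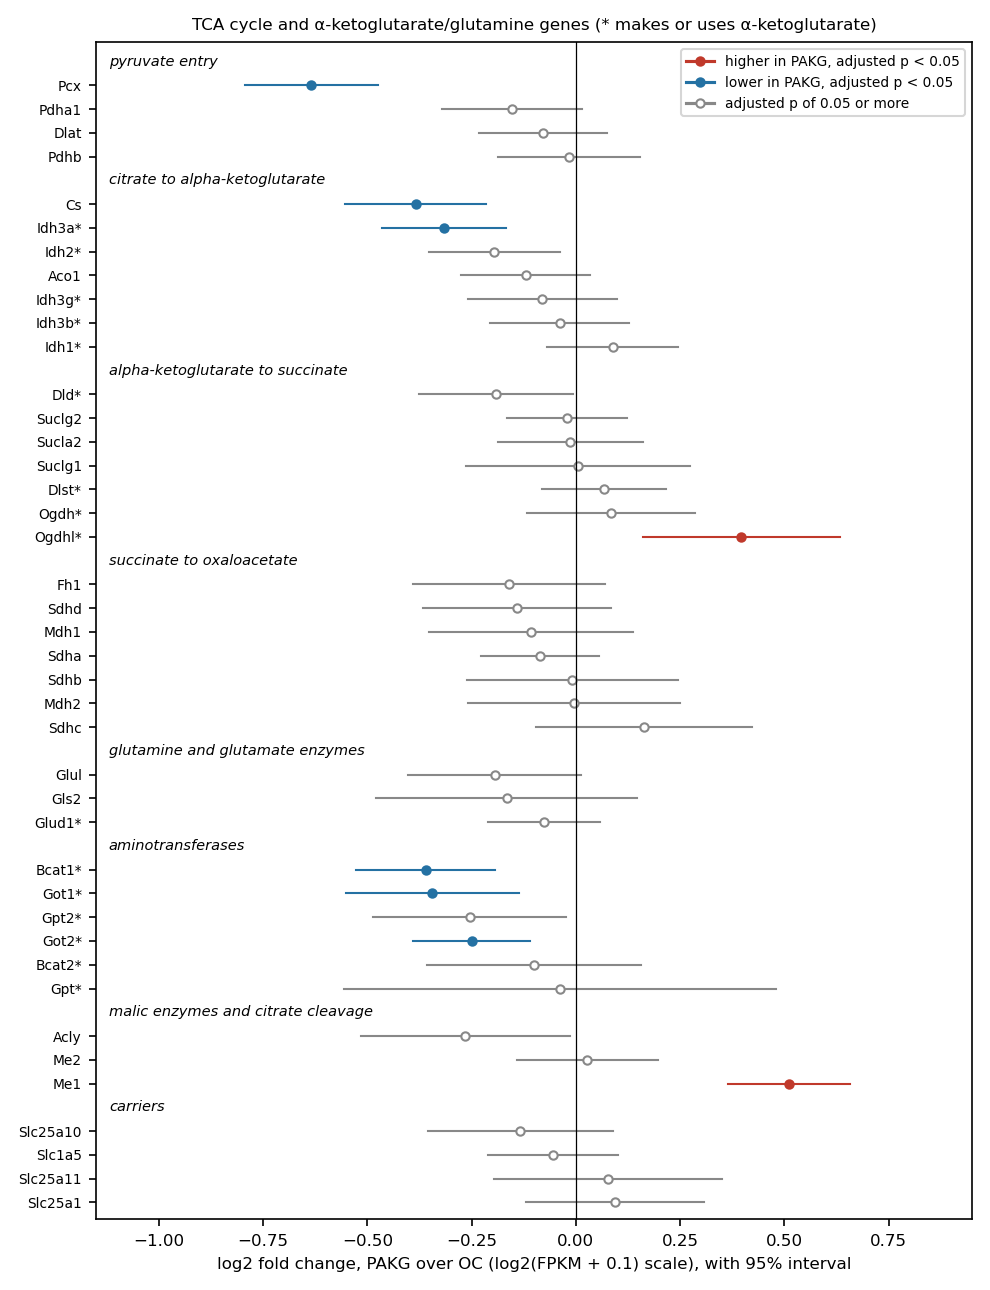
Log2 fold change of PAKG over OC (x axis) with limma's 95% interval for the 41 genes tested, by step of the pathway from top to bottom. Filled points are the 8 genes with an adjusted p under 0.05, with Me1 and Ogdhl on the higher side and Pcx farthest on the lower side, and 31 of the 41 estimates lie within 0.2 of 0.

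The 8 calls make 19.5% of the 41 genes, beside 14.7% of all genes tested. By direction, the 2 higher and 6 lower calls stand beside 5.97% and 8.73% of all genes, that is 751 higher and 1099 lower. Rescaling each library to a common total changed this split over all genes to 874 higher and 764 lower. With a fold change of at least 2 as well, 0 of the 41 genes passed limma's thresholds (12 had an unadjusted p under 0.05, beside 28.8% of all genes), beside 1.45% of all genes. The libraries of both groups did not overlap for 15 of the 41 genes (36.6%), 2 higher and 13 lower, against 33.4% of all genes, 13.7% higher and 19.6% lower. These shares are near those of all genes. The median log2 fold change of the 41 genes was -0.08, beside -0.03 over all genes, and 31 of the 41 estimates (75.6%) were below 0, beside 55.5% of all genes. Rescaling to a common total moved these medians to -0.03 and 0.01, with 58.5% of the 41 and 47.7% of all genes below 0. The 43 genes together took 0.458%, 0.470% and 0.458% of the FPKM of the PAKG libraries, against 0.481%, 0.481% and 0.454% in the OC libraries (exact permutation p = 0.4, 2-sided, n = 3 each). The ranges of both groups overlap, with OC replicate 3 lowest of all.

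**Figure D2:**
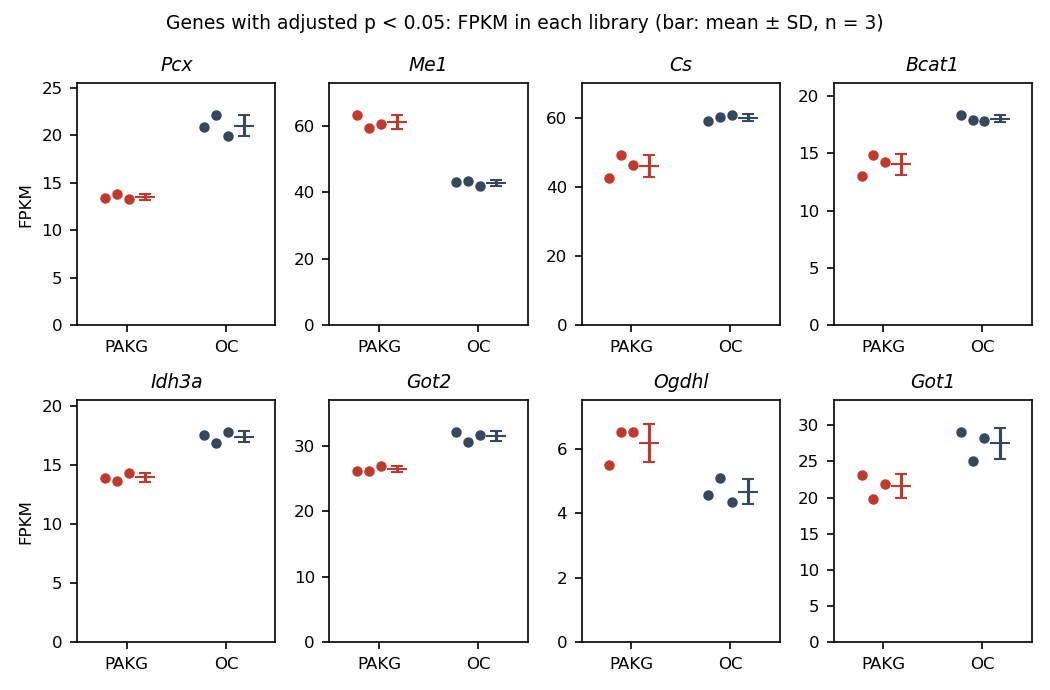
FPKM (y axis, from 0) in each of 3 PAKG and 3 OC libraries for the 8 genes called, ordered by adjusted p, with the mean ± SD beside the points. The PAKG and OC libraries of each of the 8 genes do not overlap, and Pcx and Me1 have the smallest adjusted p.

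At the entry of pyruvate, Pcx fell and the 3 subunits of the pyruvate dehydrogenase complex did not pass the test. Pcx, which encodes the mitochondrial carboxylase that turns pyruvate into oxaloacetate (ENSMUSG00000024892, GRCm38 chromosome 19, 4510472 to 4621752), had 13.35, 13.80 and 13.26 FPKM in PAKG against 20.87, 22.17 and 19.93 FPKM in OC. Every PAKG library was below every OC library, and the PAKG values lay within 1 FPKM of each other. The log2 fold change was -0.64 (SE, the standard error, 0.07, limma adjusted p = 0.00130), or 0.644 times the OC level. Pdha1, the catalytic alpha subunit that is the target of the pyruvate dehydrogenase kinases, averaged 64.9 ± 3.33 FPKM in PAKG and 72.2 ± 3.56 FPKM in OC (SD, n = 3 each), with overlapping libraries, a log2 fold change of -0.15 and a 95% interval of -0.32 to 0.02. Its adjusted p was 0.214, against 0.0460 under the replicate block, a fit that uses the shared deviations of same-numbered libraries. Pdhb, the beta subunit, and Dlat, the acetyltransferase core, had log2 fold changes of -0.02 and -0.08. Set against Pdha1 within each library, Pcx stood at 0.215, 0.201 and 0.207 in PAKG against 0.306, 0.297 and 0.271 in OC. The ratio was lower in every PAKG library than in any OC library. This pair was chosen after the values were seen, so the ratio adds no support to the call of Pcx. All gene positions are on GRCm38 and span the whole gene.

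Among the regulators of the pyruvate dehydrogenase complex, a kinase rose while a phosphatase and a second kinase fell. Of 9 pyruvate carriers, complex partners and regulators, 3 were called, 1 higher and 2 lower, beside 14.7% of all genes. Pdp1, the main phosphatase catalytic subunit, which activates the complex, had 14.16, 13.87 and 13.56 FPKM in PAKG against 22.84, 25.09 and 24.31 FPKM in OC. No library of PAKG reached any of OC, and the log2 fold change was -0.79 (SE 0.07, adjusted p = 0.000543). Pdk2, a widely expressed kinase that inactivates the complex, had 7.62, 6.27 and 6.79 FPKM in PAKG against 4.47, 4.69 and 4.65 FPKM in OC. It was higher in every PAKG library, by 0.57 on the log2 scale (SE 0.09, adjusted p = 0.00644). A second kinase, Pdk3, went the other way, with 15.12, 13.32 and 15.30 FPKM in PAKG against 19.99, 18.24 and 18.45 FPKM in OC, a log2 fold change of -0.37 (SE 0.08, adjusted p = 0.0219). Pdk4, the kinase known to be induced by fasting, had a log2 fold change of -0.33 that did not pass (adjusted p = 0.0575). Pdk4 was called with the replicate number fitted as a block (0.00571), without PAKG replicate 2 and without replicate 2 of both groups. The ratio of Pdk2 to Pdp1 within a library was 0.538, 0.452 and 0.501 in PAKG against 0.196, 0.187 and 0.191 in OC. This pair was chosen after the values were seen. Its genes were called in opposite directions, so the gap between the groups adds no support to either call. Pdk3 was no longer called with PAKG replicate 3 left out (adjusted p = 0.0623), nor with OC replicate 1 (0.0803) or OC replicate 3 (0.0757) left out, whereas Pdp1 and Pdk2 were called under each of the 16 alternatives run, at 0.00714 and 0.0339 or below.

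**Figure D3:**
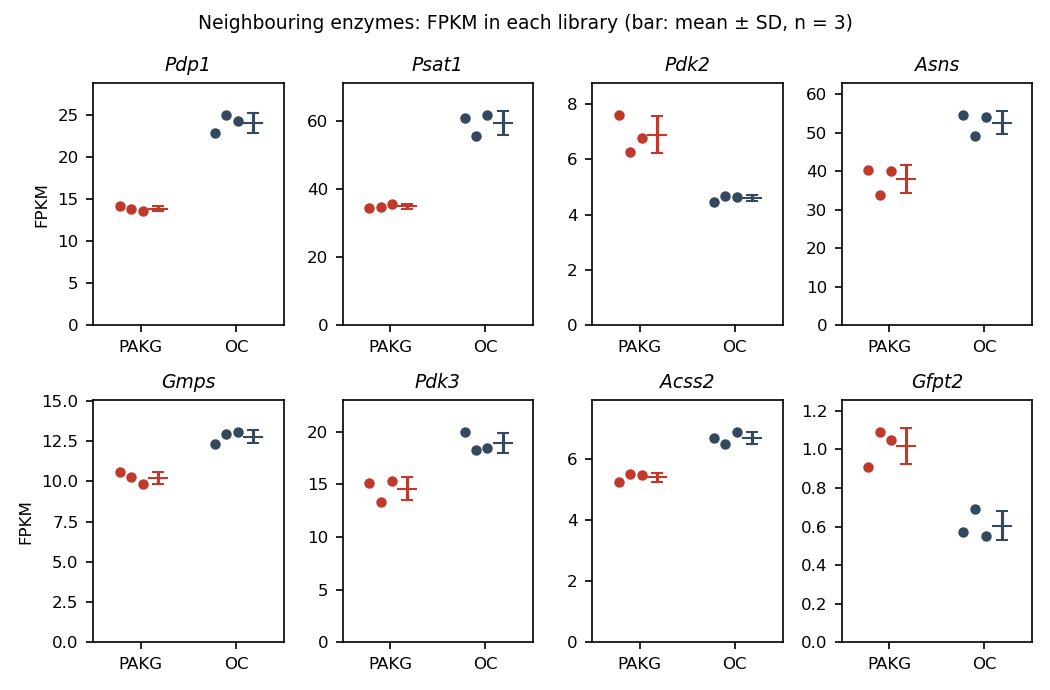
FPKM (y axis, from 0) in each library for the 8 called genes with the smallest adjusted p among 48 tested neighbours of the TCA cycle, with the mean ± SD (n = 3) beside the points. Pdk2 and Gfpt2 were higher and the other 6 lower in PAKG, and no gene has overlapping groups.

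From citrate to AKG, 2 of 7 genes fell (28.6%) and none rose, beside 8.73% lower and 5.97% higher of all genes. Cs, which makes citrate from acetyl-CoA and oxaloacetate in the first step of the cycle (ENSMUSG00000005683, chromosome 10, 128337734 to 128362479), had 42.73, 49.27 and 46.56 FPKM in PAKG against 59.29, 60.25 and 61.06 FPKM in OC. The highest PAKG library was still below the lowest OC library, and the log2 fold change was -0.38 (SE 0.07, adjusted p = 0.0130). Idh3a, the catalytic alpha subunit of the NAD-dependent enzyme that makes AKG in the cycle (ENSMUSG00000032279, chromosome 9, 54586334 to 54604661), had 13.91, 13.65 and 14.37 FPKM in PAKG against 17.55, 16.90 and 17.82 FPKM in OC. These libraries did not overlap either, at a log2 fold change of -0.32 (SE 0.06, adjusted p = 0.0163). The other subunits of the same enzyme gave smaller values that did not pass, -0.04 for Idh3b and -0.08 for Idh3g, both with overlapping libraries. Idh3b shares exon sequence with the oppositely oriented gene Nop56, and whether strand was used in counting is not stated. Without PAKG replicate 3 or OC replicate 3 the call of Cs was lost (adjusted p = 0.0648 and 0.0651). Idh3a lost its call with either PAKG replicate 1 (0.0555) or PAKG replicate 3 (0.0704) left out, and likewise with OC replicate 1 (0.0616) or OC replicate 3 (0.0827) left out.

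The NADP-dependent isocitrate dehydrogenases are encoded by Idh1 in the cytosol and peroxisome and by Idh2 in mitochondria. Idh2 had 83.93, 79.22 and 80.22 FPKM in PAKG against 97.55, 89.63 and 91.64 FPKM in OC. The groups were apart, but the log2 fold change of -0.20 did not pass the test (adjusted p = 0.0983, 95% interval -0.35 to -0.04). With the replicate block it did (adjusted p = 0.0200). Idh1 had 65.21, 71.19 and 68.75 FPKM in PAKG against 61.91, 66.06 and 64.96 FPKM in OC, with overlapping libraries and a log2 fold change of 0.09 (95% interval -0.07 to 0.24). Idh1 made 43.7%, 47.3% and 46.2% of the FPKM of both genes in PAKG and 38.8%, 42.4% and 41.5% in OC, so its share was higher in each PAKG library. Aco1, the cytosolic aconitase that also acts as an iron regulatory protein, averaged 36.6 ± 1.82 FPKM in PAKG and 39.8 ± 1.01 FPKM in OC (SD, n = 3 each), a log2 fold change of -0.12 that did not pass (adjusted p = 0.286).

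From AKG to succinate, 1 of 7 genes rose and none fell, a called share of 14.3% beside 14.7% of all genes. Ogdhl, which encodes a close homologue of the E1 subunit of the AKG dehydrogenase complex known mainly from brain (ENSMUSG00000021913, chromosome 14, 32322019 to 32348151), had 5.51, 6.52 and 6.53 FPKM in PAKG against 4.57, 5.10 and 4.34 FPKM in OC. The lowest PAKG library was above the highest OC library by less than 1 FPKM. The log2 fold change was 0.40 (SE 0.10, adjusted p = 0.0395). Ogdh, the main E1 subunit, was far more abundant, at 39.91, 43.17 and 40.46 FPKM in PAKG against 37.66, 43.35 and 35.87 FPKM in OC, and its libraries overlapped (log2 fold change 0.08, 95% interval -0.12 to 0.29). Ogdhl made 12.1%, 13.1% and 13.9% of the summed FPKM of Ogdh and Ogdhl in PAKG and 10.8%, 10.5% and 10.8% in OC, a higher share in each PAKG library. The call of Ogdhl was one of the least stable. It did not hold with PAKG replicate 2 (adjusted p = 0.0670) or PAKG replicate 3 (0.155) left out, with OC replicate 1 (0.114) or OC replicate 3 (0.144) left out, or under 4 of the other 10 alternatives, with 0.0826 the highest of those.

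The other subunits of the complex did not pass the test. Dlst, the succinyltransferase core, averaged 17.1 ± 0.522 FPKM in PAKG and 16.3 ± 0.439 FPKM in OC (log2 fold change 0.07). Dld, the dihydrolipoamide dehydrogenase shared with the pyruvate dehydrogenase complex, had 32.10, 26.88 and 28.68 FPKM in PAKG against 33.40, 33.44 and 33.05 FPKM in OC. Its PAKG libraries spread more widely than its OC libraries and lay below them, with a log2 fold change of -0.19 that did not pass (adjusted p = 0.159). The succinyl-CoA ligase genes showed next to no difference, with log2 fold changes of 0.01 for Suclg1, the shared alpha subunit, -0.01 for Sucla2, the ATP-forming beta subunit, and -0.02 for Suclg2, the GTP-forming one. Their 95% intervals ran from -0.26 at the lowest to 0.27 at the highest, which does not show that the groups were alike.

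From succinate to oxaloacetate, limma called 0 of 7 genes, beside 14.7% of all genes. An unadjusted p under 0.05 was found for 0 of them, beside 28.8% of all genes. Fh1, the fumarase that makes malate from fumarate, had the smallest p of the 7, with 28.95, 24.18 and 28.66 FPKM in PAKG against 32.91, 27.70 and 30.77 FPKM in OC. The libraries overlapped, and the log2 fold change was -0.16 (SE 0.10, adjusted p = 0.338). The 4 subunits of succinate dehydrogenase, the cycle enzyme that is also respiratory complex II, were not shifted together. Sdha, the flavoprotein subunit, was at -0.09, Sdhb, the iron-sulfur subunit, at -0.01, and the membrane anchors Sdhc and Sdhd at 0.16 and -0.14 on the log2 scale. Mdh1, the cytosolic malate dehydrogenase and on average the most abundant of the 43 genes at 96.4 FPKM over all libraries, had a log2 fold change of -0.11, and Mdh2, its mitochondrial counterpart, was at -0.0034. Mdh1 overlaps exons of Wdpcp on the other strand. With the replicate number as a block, limma called 2 of these 7 genes, Fh1 (log2 fold change -0.16, adjusted p = 0.0461) and Sdhc (0.16, adjusted p = 0.0345). The same fit called 3711 of the 12590 genes tested.

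The weight of replicate 2 was plainest in this last step. Replicate 2 was the lowest library in both groups for 6 of the 7 genes from succinate to oxaloacetate. Over the 41 genes it was lowest in both groups for 20 (48.8%), beside 31.5% of all genes tested, and highest in both for 8 (19.5%), beside 27.9%. Mdh1 shows the pattern, with 99.45, 83.68 and 95.18 FPKM in PAKG against 111.01, 88.90 and 100.41 FPKM in OC. Here the difference between replicates of a group was larger than that between the group means. The sources used here do not say what a shared replicate number stands for.

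Among enzymes that interconvert glutamine, glutamate and AKG, limma called 0 of 3 tested genes, beside 14.7% of all genes. An unadjusted p under 0.05 was found for 0 of them, beside 28.8% of all genes. Glul, the glutamine synthetase, had 10.02, 12.21 and 10.64 FPKM in PAKG against 11.97, 12.73 and 12.86 FPKM in OC. PAKG replicate 2 lay inside the OC range, and the log2 fold change was -0.20 (SE 0.09, adjusted p = 0.198). Leaving that library out brought the adjusted p of Glul to 0.0451 at a log2 fold change of -0.27. Glud1, the mitochondrial glutamate dehydrogenase that links glutamate and AKG, had 50.29, 49.99 and 50.11 FPKM in PAKG against 52.96, 52.66 and 53.06 FPKM in OC. The groups were apart with a spread far below 1 FPKM, yet the difference was small, at a log2 fold change of -0.08 (adjusted p = 0.432, 95% interval -0.21 to 0.06). Gls2, a mitochondrial glutaminase known mainly from liver, was low, with 1.07, 0.94 and 1.07 FPKM in PAKG against 1.22, 1.18 and 1.09 FPKM in OC, and it shares exon sequence with Spryd4 on the other strand.

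Of 6 aminotransferase genes, 3 fell and none rose, beside 14.7% of all genes called. After rescaling to a common total only Got1 of the 6 was called, and without the mean-variance trend only Bcat1. Each of these enzymes moves an amino group between an amino acid and AKG, making or using glutamate. Bcat1, the cytosolic enzyme for leucine, isoleucine and valine (ENSMUSG00000030268, chromosome 6, 144993835 to 145076184), had 13.05, 14.83 and 14.24 FPKM in PAKG against 18.39, 17.89 and 17.81 FPKM in OC. The PAKG libraries were all lower, with a log2 fold change of -0.36 (SE 0.07, adjusted p = 0.0158). Got2, the mitochondrial aspartate aminotransferase of the malate-aspartate shuttle (ENSMUSG00000031672, chromosome 8, 95864134 to 95888547), had 26.21, 26.13 and 26.92 FPKM in PAKG against 32.11, 30.61 and 31.58 FPKM in OC. Its groups were tight and did not overlap, with a log2 fold change of -0.25 (SE 0.06, adjusted p = 0.0321). Got1, its cytosolic partner (ENSMUSG00000025190, chromosome 19, 43499752 to 43524605), had 23.17, 19.85 and 21.88 FPKM in PAKG against 29.08, 25.08 and 28.29 FPKM in OC. Replicate 2 was lowest in both groups, the groups stayed apart, and the log2 fold change was -0.34 (SE 0.09, adjusted p = 0.0402). The ratio of Got1 to Got2 overlapped between the groups.

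The remaining aminotransferases of the set did not pass. Gpt2, the mitochondrial alanine aminotransferase, was low, with 1.98, 2.08 and 2.13 FPKM in PAKG against 2.62, 2.29 and 2.54 FPKM in OC, and its log2 fold change of -0.25 had an adjusted p of 0.138. Gpt, the cytosolic enzyme, had 1.36, 0.78 and 0.96 FPKM in PAKG against 0.86, 1.08 and 1.20 FPKM in OC, too close to each other and too variable to tell a direction. Bcat2, the mitochondrial branched-chain enzyme, averaged 19.7 ± 2.10 FPKM in PAKG and 21.2 ± 2.35 FPKM in OC (SD, n = 3 each; log2 fold change -0.10). Got2 has a processed pseudogene, so its reads may be shared with a near-identical copy. The 3 calls were lost when certain single libraries were left out, in fits with fewer samples. Calls over all genes also moved in such fits, from 1850 to between 831 and 2227. Bcat1 was not called with PAKG replicate 1 (adjusted p = 0.0526) or PAKG replicate 3 (0.0709) left out, nor with OC replicate 1 (0.0619) or OC replicate 3 (0.0658) left out. Got2 was called only with PAKG replicate 2 left out, and the adjusted p was 0.0962 with PAKG replicate 1 and 0.126 with PAKG replicate 3 left out. With OC replicates 1, 2 and 3 left out in turn it was 0.110, 0.0568 and 0.122. Got1 was called only without OC replicate 2, and leaving out any other library gave 0.0547 to 0.145.

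Psat1, a neighbour of the set and not one of the 43 genes, also makes AKG, and its log2 fold change lay below those of all 16 AKG genes, the lowest of which was -0.36 for Bcat1. It encodes the phosphoserine aminotransferase of serine synthesis, which turns glutamate into AKG. Psat1 had 34.38, 34.59 and 35.66 FPKM in PAKG against 60.89, 55.46 and 61.87 FPKM in OC. The groups were far apart, with a log2 fold change of -0.77 (SE 0.07, adjusted p = 0.000686), and Psat1 was called under each of the 16 alternatives, at 0.00733 or below. Relative to Got2 it stood at 1.31, 1.32 and 1.32 in PAKG against 1.90, 1.81 and 1.96 in OC, lower in every PAKG library. This pair was chosen after the values were seen, so the ratio adds no support to the call of Psat1. Of 14 tested genes that encode further aminotransferases, proline, branched-chain acid and hydroxyglutarate enzymes, Psat1 alone was called (7.1%, beside 14.7% of all genes). An unadjusted limma p under 0.05 was found for 6 of these 14, beside 28.8% of all genes. Oat, the ornithine aminotransferase, averaged 127 ± 2.52 FPKM in PAKG and 120.4 ± 5.52 FPKM in OC, with overlapping libraries and a log2 fold change of 0.08.

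Enzymes that use the amide group of glutamine gave 4 calls among 10 genes, 1 higher and 3 lower, beside 5.97% higher and 8.73% lower of all genes. After rescaling to a common total Asns alone of the 4 was called. Asns, the asparagine synthetase, had 40.24, 33.89 and 39.95 FPKM in PAKG against 54.68, 49.07 and 53.93 FPKM in OC. Its log2 fold change was -0.47 (SE 0.09, adjusted p = 0.0134), with no overlap of the groups. Gmps, which makes GMP from XMP, had 10.60, 10.24 and 9.85 FPKM in PAKG against 12.30, 12.94 and 13.07 FPKM in OC (log2 fold change -0.32, SE 0.07, adjusted p = 0.0204). Gfpt2, an entry enzyme of hexosamine synthesis, went the other way at a low level, with 0.91, 1.09 and 1.05 FPKM in PAKG against 0.57, 0.69 and 0.55 FPKM in OC. Its log2 fold change was 0.67 (SE 0.17, adjusted p = 0.0383). Of the 3, Asns was lost without OC replicate 1 (0.0547) or OC replicate 3 (0.0660), and Gmps without PAKG replicate 3 (0.114), OC replicate 2 (0.0563) or OC replicate 3 (0.0944). Gfpt2 was called only without OC replicate 2, with 0.0734 to 0.145 when any other library was left out.

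The outlet of cycle carbon to the cytosol held the largest rise of the set. Me1, the cytosolic NADP-dependent malic enzyme (ENSMUSG00000032418, chromosome 9, 86581371 to 86695953), had 63.28, 59.15 and 60.51 FPKM in PAKG against 43.14, 43.34 and 41.73 FPKM in OC. The lowest PAKG library was well above the highest OC library. The log2 fold change was 0.51 (SE 0.06, adjusted p = 0.00208), or 1.43 times the OC level. Me2, the mitochondrial enzyme that prefers NAD, had 5.60, 5.23 and 5.50 FPKM in PAKG against 5.34, 5.18 and 5.49 FPKM in OC. These overlapped almost fully (log2 fold change 0.03, 95% interval -0.14 to 0.20). Me1 thus made 91.7%, 91.6% and 91.4% of the summed FPKM of the 3 malic enzymes in PAKG and 88.5%, 89.0% and 87.8% in OC. Me1 and Pcx were the only genes of the 43 that were called under each of the 16 alternatives, Me1 at an adjusted p of 0.0185 or below and Pcx at 0.0116 or below.

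Acly, which splits exported citrate into acetyl-CoA and oxaloacetate, had 74.74, 94.33 and 77.41 FPKM in PAKG against 94.33, 107.50 and 93.41 FPKM in OC. Replicate 2 was highest in both groups, and PAKG replicate 2 reached the OC range, and the log2 fold change of -0.26 did not pass (SE 0.11, adjusted p = 0.151). With the replicate block Acly was called, at the same fold change (adjusted p = 0.0128). Acss2, which makes acetyl-CoA from acetate and is a neighbour of the set, fell, with 5.25, 5.51 and 5.47 FPKM in PAKG against 6.70, 6.50 and 6.90 FPKM in OC. The log2 fold change was -0.30 (SE 0.07, adjusted p = 0.0275), with non-overlapping groups. Its call did not hold with PAKG replicate 1 (0.0919) or PAKG replicate 3 (0.112) left out, nor with OC replicate 1 (0.0862) or OC replicate 3 (0.116) left out.

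Among the carriers, limma called 0 of 4 tested genes, beside 14.7% of all genes. An unadjusted p under 0.05 was found for 0 of them, beside 28.8% of all genes. Slc25a10, the dicarboxylate carrier that exchanges malate and succinate for phosphate, had 13.95, 13.12 and 13.58 FPKM in PAKG against 16.83, 13.28 and 14.69 FPKM in OC. The libraries overlapped, with a log2 fold change of -0.13 (SE 0.10, adjusted p = 0.413). Slc25a1, the citrate carrier, was at 0.09, Slc25a11, the AKG-malate carrier of the malate-aspartate shuttle, at 0.08, and Slc1a5, a plasma membrane transporter of glutamine and other neutral amino acids, at -0.05 on the log2 scale. Slc25a11 shares exon sequence with Rnf167 on the other strand. The interval of Slc25a11 was the widest of the 4, at -0.20 to 0.35.

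Grouped by their use of AKG, 5 of the 16 genes that make or use it were called (31.2%), 1 higher and 4 lower, against 3 of the other 25 tested genes (12.0%). The 5 are Idh3a, Ogdhl, Got1, Got2 and Bcat1, and the background over all genes is again 14.7%. The median log2 fold change of the 16 was -0.09. The 16 genes are an unequal set, since 3 encode subunits of 1 isocitrate dehydrogenase and 4 belong to the AKG dehydrogenase complex or its homologue. The count of 5 depended on the processing. It was 3 without a filter, 2 after rescaling to a common total, 2 without the mean-variance trend, and 2 after rescaling without mitochondrially encoded genes. Over all genes these settings gave 1325 (of 25742 tested), 1638, 1664 and 1622 calls, against 1850 as reported. Without PAKG replicate 3, OC replicate 1 or OC replicate 3 the count of the 16 was 0, beside 831, 1113 and 871 calls over all genes. It was 1 without PAKG replicate 1 and 3 without PAKG replicate 2, beside 1117 and 2227. With the replicate block it was 6, since Idh2 was added, beside 3711 calls over all genes.

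Ratios between genes within a library do not depend on how the libraries were scaled. Of 19 pairs, chosen after the values were seen, 11 did not overlap between the groups, 6 higher and 5 lower in PAKG. Among single genes 33.4% of all genes did not overlap, and no share over other gene pairs was taken. Most of the pairs that did not overlap hold a gene already called by itself, so the count largely restates those calls. With 3 against 3 libraries the exact permutation test (2-sided) cannot give a p below 0.1, and adjusted over the 19 pairs the smallest was 0.173, so no ratio could pass. Within the NAD-dependent isocitrate dehydrogenase, Idh3a stood at 0.570, 0.619 and 0.607 of Idh3b in PAKG against 0.695, 0.728 and 0.756 in OC. Relative to Idh3g it stood at 0.410, 0.448 and 0.426 in PAKG against 0.491, 0.523 and 0.499 in OC, whereas the ratio of Idh3b to Idh3g overlapped. The alpha subunit transcript was thus lower relative to both partners in every PAKG library. Me1 relative to Me2 was 11.3, 11.3 and 11.0 in PAKG against 8.08, 8.37 and 7.60 in OC. Idh1 relative to Idh2 was 0.777, 0.899 and 0.857 in PAKG against 0.635, 0.737 and 0.709 in OC, which also did not overlap, although neither gene was called alone without the replicate block.

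**Figure D4:**
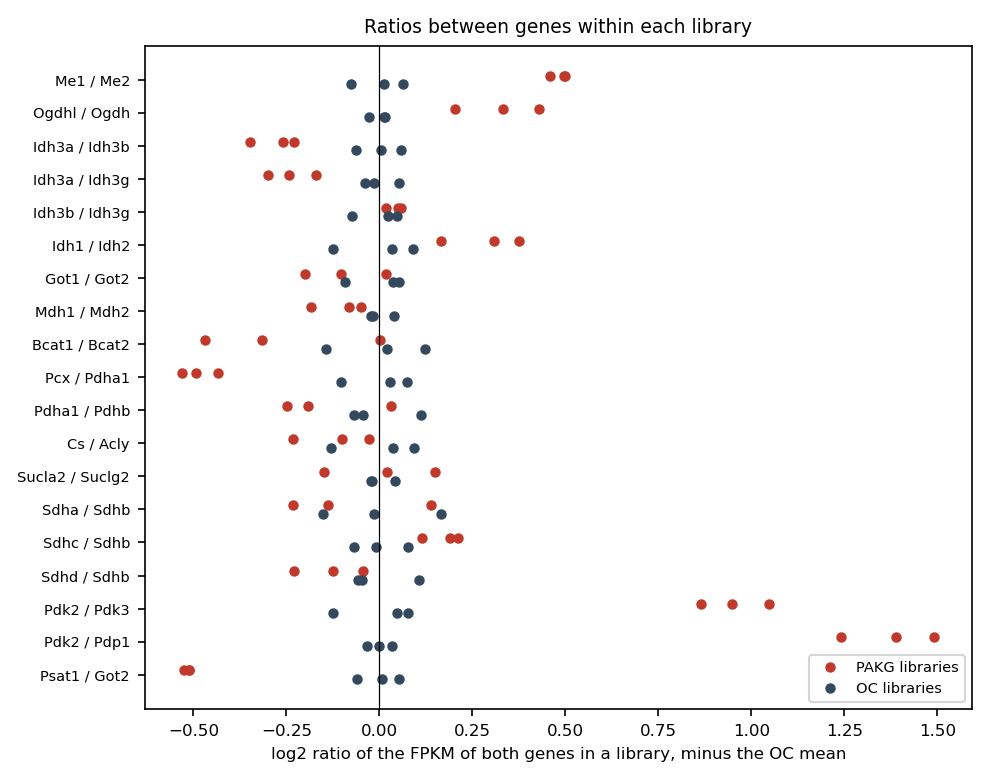
Log2 ratio of the FPKM of 2 genes in the same library, minus the mean of the OC libraries (x axis), for 19 gene pairs (y axis), with 1 point per library. The PAKG points of Me1 to Me2, Pdk2 to Pdk3 and Pdk2 to Pdp1 lie right of all OC points, those of Idh3a to both partners, Pcx to Pdha1 and Psat1 to Got2 lie left of them, and 8 pairs overlap.

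The promoters of 5 called genes are shown because these genes moved in both directions and hold different short motifs near their starts. RefSeq (GRCm38.p6) gave a window of 250 bases before to 50 bases after the start for 36 of the 43 genes, and the most upstream start was used. The stretches below run 5′ to 3′ on the strand of the gene, with 140 bases before the start and 10 from it. Capitals mark matches, on either strand, to the E-box CACGTG, the antioxidant response element core TGACNNNGC, the C/EBP-ATF core TGATGNAAN or the CCAAT box, and matches that overlap run together.
Me1 promoter, chr9:86695905-86696054, minus strand: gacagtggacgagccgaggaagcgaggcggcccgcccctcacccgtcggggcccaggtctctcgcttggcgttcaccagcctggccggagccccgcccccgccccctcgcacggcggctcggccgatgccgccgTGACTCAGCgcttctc
Ogdhl promoter, chr14:32321879-32322028, plus strand: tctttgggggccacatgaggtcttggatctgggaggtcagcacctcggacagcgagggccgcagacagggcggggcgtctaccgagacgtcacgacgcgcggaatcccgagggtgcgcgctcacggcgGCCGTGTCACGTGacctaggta
Pcx promoter, chr19:4510332-4510481, plus strand: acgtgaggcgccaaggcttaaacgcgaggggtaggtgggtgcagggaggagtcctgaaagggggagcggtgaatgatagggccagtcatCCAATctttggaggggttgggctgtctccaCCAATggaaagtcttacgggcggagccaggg
Cs promoter, chr10:128337587-128337736, plus strand: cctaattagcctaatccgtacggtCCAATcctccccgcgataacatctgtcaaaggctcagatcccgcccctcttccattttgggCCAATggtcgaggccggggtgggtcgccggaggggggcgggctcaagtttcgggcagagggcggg
Got1 promoter, chr19:43524596-43524745, minus strand: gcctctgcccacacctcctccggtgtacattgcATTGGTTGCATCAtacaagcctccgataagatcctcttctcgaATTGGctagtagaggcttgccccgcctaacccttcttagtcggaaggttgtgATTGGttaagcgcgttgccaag

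Of the 2 genes that rose, Me1 holds TGACTCAGC across its start, and Ogdhl holds GCCGTGTCA, the same core on the other strand, which overlaps an E-box. The antioxidant response element core was found in the windows of 7 of the 36 genes (19.4%), Pdhb, Idh3g, Ogdhl, Dlst, Sucla2, Mdh1 and Me1, beside 12.39% of all 32851 promoter windows, and 5 of these 7 genes were not called. An E-box was found in 3 of the 36 windows (8.3%), those of Pcx, Ogdhl and Slc25a1, beside 7.15% of all windows. The E-box of Pcx lies upstream of the stretch shown. Among the genes that fell, the stretches of Pcx and Cs hold 2 CCAAT boxes each, and that of Bcat1, not printed, holds 1. The window of Got2, not printed either, holds none of the 4 motifs. Idh3a, which also fell, had no RefSeq window and was not examined. Got1 shows 3 CCAAT boxes, the first running into a C/EBP-ATF core (GTTGCATCA on the strand shown). That core was found in 2 of 36 windows, of Got1 and Me3, beside 3.95% of all windows. CCAAT was found in 20 of 36 (55.6%), beside 37.41% of all windows, and 16 of these 20 genes were not called. These matches describe letters in a window and do not show that a factor binds there.

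**Figure D5:**
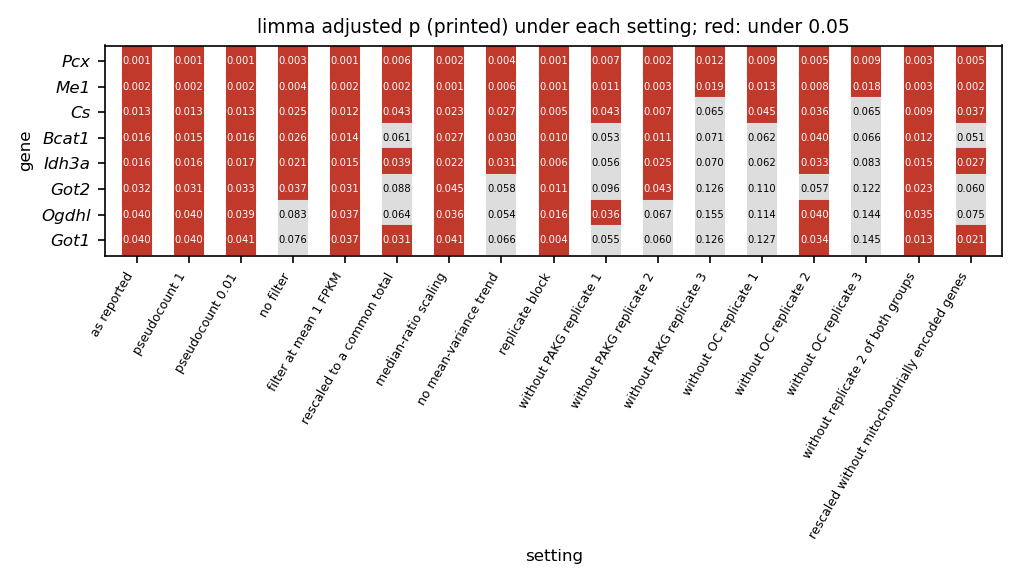
Limma adjusted p of the 8 called genes (rows) as reported and under each of 16 alternatives (columns), with values under 0.05 in red. Pcx and Me1 are red in every column, Cs in all but the columns without PAKG replicate 3 and without OC replicate 3, and the other 5 genes lose the call in 4 to 8 columns.

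Which of the 8 genes were called changed most when single libraries were left out. Calls over all genes also moved there, from 1850 to between 831 and 2227. Fewer samples were fitted, and the cause was not tested. Without PAKG replicate 3 or OC replicate 3 only Me1 and Pcx were called, without OC replicate 1 also Cs, and without PAKG replicate 1 also Cs and Ogdhl. Without OC replicate 2, 7 of the genes were called. Leaving out PAKG replicate 2 gave 8 calls, with Acly and Glul in place of Ogdhl and Got1. Rescaling to a common total ended the calls of Bcat1 (adjusted p = 0.0609), Got2 (0.0879) and Ogdhl (0.0642), and rescaling without mitochondrially encoded genes ended those of the same 3 genes (0.0508, 0.0599 and 0.0750). Without the mean-variance trend Got1 (0.0661), Got2 (0.0583) and Ogdhl (0.0540) were not called, and without a filter Got1 (0.0762) and Ogdhl (0.0826) were not. The direction of each of the 8 genes was kept under all 16 alternatives. With the replicate number as a block, 13 genes were called, 3 higher and 10 lower: the 8, with Idh2, Pdha1, Acly and Fh1 added on the lower side and Sdhc on the higher side. Over all genes the block gave 3711 calls, against 1850 without it. Leaving out replicate 2 of both groups gave 10 calls among the 41 genes.

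Across the neighbouring steps as a whole, 61 genes had been listed, 58 were in the files and 48 were tested. Of these, 10 were called (20.8%), 2 higher and 8 lower, beside the 14.7% of all genes. None changed by 2-fold. Ppat, the first enzyme of purine synthesis, and Slc1a3, a glutamate and aspartate transporter, complete the 10, both lower. Ppat shares exon sequence with Paics on the other strand, which limits what its value says. The median log2 fold change of the 48 was -0.08. Of 7 tested genes for lipoylation and succinate dehydrogenase assembly, limma called 0 (1 had an unadjusted p under 0.05, beside 28.8% of all genes). After rescaling to a common total Gmps (adjusted p = 0.0703), Acss2 (0.0938), Gfpt2 (0.0514), Ppat (0.135) and Slc1a3 (0.193) were not called, while Bckdha, a subunit of the branched-chain ketoacid dehydrogenase, was called on the higher side (0.0259). Without a filter Gfpt2 (0.0991), Ppat (0.0756) and Slc1a3 (0.0804) were not. With 1 library left out the count of 10 ranged from 3, without OC replicate 3, to 14, without PAKG replicate 2. Calls over all genes in those fits were 871 and 2227. With the block 18 neighbours were called, beside 3711 of all 12590 genes tested.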

How the data were processed

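RNA-Seq values of 3 PAKG and 3 OC libraries were taken as the authors deposited them, as FPKM per gene rounded to 2 decimals, with groups and replicate numbers from the sample labels. The libraries were stranded poly(A) libraries. HISAT2 and StringTie on GRCm38, with cutadapt, FastQC and DESeq2, are named by the submitters' processing notes. Their versions, the annotation release and the use of strand in counting were not stated there or in the paper. FPKM are not counts, so limma took the place of the DESeq2 comparison that the study states, and depth is an estimate that covers no error.

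On the log2(FPKM + 0.1) scale, limma 3.58.1 in R 4.3.3 (lmFit and eBayes, trend on) compared the groups for 12590 genes averaging 0.5 FPKM or more. Tests were 2-sided, and Benjamini-Hochberg adjustment covered every gene tested (residual degrees of freedom 4, prior 3.54). The call was an adjusted p under 0.05. Python 3.11.15, numpy 2.4.6, pandas 2.3.3, scipy 1.17.1 and matplotlib 3.10.9 were used for tables, ratios and figures. The calling step was tested on simulated data, where the pass condition covered only changes larger than those of the called genes of the set. GENCODE M21 gave positions for 99.76% of gene IDs, and promoters came from RefSeq (GRCm38.p6).

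The 43 genes, the neighbouring genes and the markers were chosen with earlier results of these data known. All called genes are given by library (the least p in a step without a call), with up to 8 called neighbours. Samples with the same replicate number deviated together (r = 0.240, 0.430 and 0.192, against -0.312 to 0.138 for other numbers), so the number was also fitted as a block. What it marks is not stated. The pairing comes from the numbers in the labels. The other alternatives were pseudocounts of 1 and 0.01, no filter, a filter at 1 FPKM, median-ratio scaling, a common total, no mean-variance trend and each library left out. Added after seeing the data were leaving out replicate 2 of both groups and rescaling without mitochondrially encoded genes.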

Additional observations from a re-analysis of the deposited data

How the results depend on the processing

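Under the 16 alternatives, 14 planned and 2 chosen after seeing the data, no gene named by rule changed direction. The pseudocounts, the filter at 1 FPKM and median-ratio scaling left the count of 8 genes unchanged. Of the 41 genes, 5 were called after rescaling to a common total, 5 without the mean-variance trend and 5 after rescaling without mitochondrially encoded genes. Of the 16 AKG genes, the same 3 settings gave 2, 2 and 2, and no filter gave 3. Of the 48 neighbours, 6 were called after rescaling to a common total, 6 after rescaling without mitochondrially encoded genes, and 16 without replicate 2 of both groups. With the replicate block, the calls were 13 of the 41 genes, 18 of the neighbours and 3711 of all genes, and it ended no call of a named gene. With each library left out in turn, 2 to 8 of the 41 genes, 0 to 4 of the AKG genes, 3 to 14 of the neighbours and 831 to 2227 of all genes were called, fewest without PAKG replicate 3 or OC replicate 3. Fewer samples were fitted there, and otherwise the cause was not tested. Depth is an estimate, and rounding to 2 decimals is coarse for genes as low as Me3 and Slc38a1.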
